A study of Rattus norvegicus with 9 samples.

Results

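The loci of *Ctsb*, which encodes cathepsin B, and *Cst3*, which encodes cystatin C, were described by the 38 accessible regions that lay wholly inside 2 windows of the rat genome (rn6), out of 186719 deposited accessible regions. The *Ctsb* window, chr15:46180000-46380000, held 18 regions, and the *Cst3* window, chr3:143150000-143350000, held 20. Each window was drawn around a region that the study names near the gene. Those 2 regions were selected on the difference between CCI and naive values in the same 5 ATAC-seq libraries, so CCI and naive values in the windows are given as a description. Regions of the windows are marked where they passed the fit over all regions, but no member's p is given and nothing is supported with these marks.

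Cathepsin B is a cysteine protease of lysosomes that degrades proteins and processes other proteases and precursors. Cystatin C is a small secreted protein that binds cysteine cathepsins, cathepsin B among them, and inhibits them. Accessible regions away from gene starts that carry H3K4me1, a methyl mark on histone H3, often act as enhancers.

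The study used female Sprague Dawley rats in which a sciatic nerve was loosely tied (chronic constriction injury, CCI), and naive rats that had no surgery. ATAC-seq, in which a transposase cuts open chromatin, was carried out on the lumbar dorsal root ganglia (DRGs) of the injured side in 2 rats 14 days after CCI and on DRGs of 3 naive rats, each library coming from 1 rat. ChIP-seq for H3K4me1 covered 2 CCI and 2 naive libraries, each from the pooled DRGs of 3 rats, and was available as 1 merged list of 211440 regions with no value per library. The age of the rats is stated as 8 to 10 weeks in one place of the study and 12 to 16 weeks in another. The study's text also states the ATAC-seq group sizes the other way round in one place and as equal in another, and the sample labels were followed here. Because DRGs hold neurons, glia and other cells, a change in the share of a cell type and a change in accessibility within each cell cannot be told apart.

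Each accessibility value was a region's read number after division by the size factor of the library, here called normalized reads. Over all accessible regions, CCI rats 1 and 2 had 7692994 and 9304710 reads, and naive rats 1, 2 and 3 had 13248437, 4633807 and 6382154. Naive rat 2 had the fewest reads, with a median of 9 per region, so its single values carried the largest counting error. Fold changes were fitted with limma over all 186719 regions on the log2(normalized reads + 1) scale, on which regions with few reads show less than their full change. A region was called at an unadjusted two-sided p below 0.01. The SE beside a region's fold change is from this fit. It draws on the spread of other regions, so it is not the spread of the rats shown beside it.

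In 2 places a single naive rat stood apart from the other naive rats. Across 6 adjacent regions of the *Cst3* window between 143329877 and 143334550, a span of 4.67 kb, the summed normalized reads were 70.8 and 111 for the CCI rats, and 109, 146 and 21.0 for naive rats 1, 2 and 3. Naive rat 3 was below 50% of every other rat in 5 of these 6 regions, whereas this was the case for 3.79% of all regions. Between 143600000 and 144100000, in the flank of the *Cst3* window at higher coordinates, naive rat 2 lay with the CCI rats and apart from naive rats 1 and 3. Both places were noticed after the values were seen, and values without the rat are given beside the main results they touch.

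Of the 18 regions of the *Ctsb* window, 16 had a positive CCI to naive log2 fold change, with a median of 0.52 and a range from -0.78 to 1.19. In the *Cst3* window 13 of the 20 were negative, with a median of -0.24 and a range from -1.42 to 1.12. The *Ctsb* window median was 0.13, with 11 positive regions, without CCI rat 1, and 0.31 without naive rat 2. The *Cst3* window median was -0.56 without CCI rat 1, -0.38 without CCI rat 2 and -0.47 without naive rat 3. Without the named regions 15 of 17 were positive in the *Ctsb* window and 12 of 19 negative in the *Cst3* window. Over all regions the median was 0.13, and 58.1% were positive. In the 1 Mb on each side of the *Ctsb* window 78 of 112 regions (69.6%) were positive, with a median of 0.24. Around the *Cst3* window 101 of 177 were negative, with a median of -0.15. Without CCI rat 1 the median over all regions was 0.06. Median-of-ratios rescaling of the libraries moved the median of all regions to 0.03, so changes relative to the flanks are given further on. Under that rescaling the calls over all regions turned from 3968 higher and 2735 lower to 2353 higher and 4619 lower. Without CCI rat 1 they were 542 higher and 2810 lower.

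In the *Ctsb* window 2 regions were called, both more accessible after CCI, where 2.13% of all regions were called in that direction. In the *Cst3* window 4 were called, all less accessible after CCI, where 1.46% of all regions were. Over both directions 3.59% of all regions were called. At a Benjamini-Hochberg adjusted p below 0.05 from limma, 1 region of the *Ctsb* window and 2 of the *Cst3* window passed, with 0.344% of all regions. Both CCI values exceeded every naive value in 6 regions of the *Ctsb* window, with 18.2% over all regions. They were below every naive value in 7 regions of the *Cst3* window, with 11.0% over all regions. These window counts include the named regions. Among the 17 other *Ctsb* window regions 1 was called, 0 passed the adjusted p and 5 had both CCI values above every naive value. Among the 19 others of the *Cst3* window 3 were called, 1 passed and 6 had both CCI values below every naive value. Without naive rat 1 limma called 2 regions in the *Cst3* window at p below 0.01. Without a mean-variance trend limma called 0 regions in the *Ctsb* window and 1 in the *Cst3* window, where edgeR called 3 and 4, DESeq2 2 and 3, and limma with the trend 3 and 7 at an unadjusted p below 0.05, met by 11.1% of all regions. Of those 7, 6 were less accessible and 1 was more accessible after CCI. Over all 186719 regions the calls numbered 6703 in the main fit and 3793 without naive rat 1. They numbered 3142 without a trend, 7221 with edgeR and 4193 with DESeq2. Nothing is read from these counts, since the windows were selected on this contrast.

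The named region near *Ctsb*, chr15:46281215-46281898, is 684 bp long. It had 56.1 and 47.2 normalized reads in the CCI rats and 20.3, 17.0 and 30.9 in naive rats 1, 2 and 3. Either CCI rat exceeded every naive rat. The CCI mean was 51.6 ± 6.31 (SD, n = 2) and the naive mean 22.7 ± 7.26 (SD, n = 3), for a log2 fold change of 1.19 (SE 0.31). These values stood on 84 and 103 reads in the CCI rats and on 62, 17 and 47 reads in the naive rats.

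The called region other than the named one, chr15:46292055-46292630, was also the next accessible region on the side of higher coordinates, 10.8 kb away from centre to centre. Its normalized reads were 36.1 and 38.5 in the CCI rats and 19.6, 18.0 and 13.8 in the naive rats. The groups did not overlap, and the log2 fold change was 1.09 (SE 0.34). Only 14 bp of this region, at its lower end, lay in an H3K4me1 region. The region next to it, chr15:46292866-46293472, held 52.7 and 34.8 normalized reads in the CCI rats and 24.5, 28.0 and 21.7 in the naive rats, again without overlap of the groups. It was singled out after its values were seen, was not called (log2 fold change 0.78, SE 0.31) and had no H3K4me1 overlap.

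On the side of lower coordinates the nearest region, chr15:46276387-46276727, lay 5.0 kb from the named one. It had 12.7 and 15.1 normalized reads in the CCI rats and 7.84, 4 and 9.20 in the naive rats. The CCI values were the higher ones here too, but only 4 reads stood behind the value of naive rat 2, and the region was not called (log2 fold change 0.95, SE 0.52). Of the 17 regions other than the named one, this region was the most alike to it over the 5 libraries, with a root mean square (RMS) difference of 0.27 between their log2 values, each centred on its own mean. The next 2 were chr15:46326421-46326648 at 0.32 and chr15:46264490-46264639 at 0.39.

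The first of these 2, 45.0 kb from the named region, had 22.7 and 18.3 normalized reads in the CCI rats and 13.4, 8 and 20.4 in the naive rats. Here naive rat 3 lay above CCI rat 2, so the groups overlapped, and the log2 fold change was 0.61 (SE 0.40), which was 0.29 without naive rat 2 and 0.91 without naive rat 3. The second, 150 bp long, had 15.4 and 6.87 in the CCI rats and 5.55, 2 and 5.26 in the naive rats. Its log2 fold change of 1.19 (SE 0.68) was as large as that of the named region, with CCI rat 2 slightly above naive rat 1 and with 2 reads in naive rat 2, and it was not called. The value was 0.66 without CCI rat 1, 0.82 without naive rat 2 and 1.72 without CCI rat 2. With 10 added to the normalized reads in place of 1, the values were 0.54 at 46264490, 0.50 at 46276387 and 0.81 at the called region at 46292055. These likenesses rest on the same 5 libraries, which differ in depth.

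In each of the 3 strongest regions of the *Ctsb* window the groups overlapped. The strongest, chr15:46366946-46367838, had 260.3 and 212 normalized reads in the CCI rats and 193, 217 and 191 in the naive rats. Naive rat 2 lay above CCI rat 2, and the log2 fold change was 0.23 (SE 0.26). The next, chr15:46316580-46317404, lies 35.4 kb from the named region. It is taken here to hold the start of *Ctsb*, since the distance to the gene start in the study's lists leads into it when *Ctsb* is read on the plus strand and into no accessible region on the minus strand. The strand of *Ctsb* in rn6 was not checked, and the study places the named region upstream of the gene in one place and downstream of it in another. There the CCI rats had 178 and 151 normalized reads and the naive rats 127, 174 and 141, with naive rat 2 above CCI rat 2 (log2 fold change 0.17, SE 0.25). The last of the 3, chr15:46357695-46358669, had 129.5 and 97.1 in the CCI rats and 77.1, 101 and 79.5 in the naive rats, with a log2 fold change of 0.39 (SE 0.25). Naive rat 2 was again above CCI rat 2. With 1 rat left out these 3 values ranged from 0.08 to 0.38, from 0.04 to 0.29 and from 0.19 to 0.60, in the order given.

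Levels were compared between regions per kb of region length. In naive rats the strongest region had 224 ± 16.3 (SD, n = 3) normalized reads per kb and the region at the *Ctsb* start 178 ± 29.3, and the first was the higher one in each naive rat. The region at 46357695 followed with 88.1 ± 13.5. The named region had 33.2 ± 10.6 normalized reads per kb in naive rats, which placed it at rank 12 of the 18, and the called region at 46292055 had 29.7 ± 5.20. After CCI the named region reached 75.5 ± 9.22 (SD, n = 2) and the called region 64.7 ± 2.96, still far below the 264 ± 38.3 of the strongest region.

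The 9 *Ctsb* window regions not given above had between 3.19 and 32.6 mean normalized reads in naive rats. The largest gap between regions, 58.8 kb, ended at 46255568, and 16 of the 18 regions lay after it. In the RefSeq annotation of the later build GRCr8 the protein-coding neighbours of *Ctsb* are *Defb44*, a beta-defensin gene, on one side, and *Fdft1*, which encodes squalene synthase, and *Neil2*, a DNA glycosylase gene, on the other. No annotation of rn6 was used here, so the remaining regions were not assigned to exons, introns or genes.

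The named region near *Cst3*, chr3:143254480-143255452, is 973 bp long. It had 59.4 and 71.0 normalized reads in the CCI rats and 154, 140 and 106 in the naive rats. Either CCI rat was below every naive rat. The CCI mean was 65.2 ± 8.17 (SD, n = 2) and the naive mean 133 ± 24.9 (SD, n = 3), for a log2 fold change of -1.01 (SE 0.25). Behind these values stood 89 and 155 reads in the CCI rats and 472, 140 and 161 reads in the naive rats.

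Each of the 3 called *Cst3* window regions other than the named one lay at lower coordinates than chr3:143223095-143223945, the region that the distance in the study's lists places at the *Cst3* start on the minus strand, its strand in GRCr8. The farthest, chr3:143192441-143193443, is listed by the study for the gene now named *Cstdc2*, which encodes a cystatin domain protein and neighbours *Cst3* in GRCr8. It had 26.7 and 21.5 normalized reads in the CCI rats and 68.9, 46.0 and 90.7 in the naive rats. The groups were well apart, with a log2 fold change of -1.42 (SE 0.28), the lowest in the window, although the naive rats themselves ranged widely. The region at chr3:143199853-143200061 had 6.68 and 5.95 in the CCI rats and 14.1, 15.0 and 23.0 in the naive rats, without overlap, and a log2 fold change of -1.30 (SE 0.46). It rested on few reads, 10 and 13 in the CCI rats, and with 10 added to the normalized reads in place of 1 its value was -0.73.

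The called region chr3:143208575-143209243 had the highest naive mean per kb in the window, though within the spread of the next, and no H3K4me1 overlap. Its normalized reads were 101 and 100.3 in the CCI rats and 191, 182 and 156 in the naive rats. The CCI rats were almost equal and were below every naive rat, and the log2 fold change was -0.80 (SE 0.25). Over the 5 libraries this region was also the most alike to the named region, 46.1 kb away, with an RMS difference of 0.16. The next most alike were chr3:143220988-143221210 at 0.40 and the called region at 143199853 at 0.45.

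The region at 143220988 had 20.7 and 22.9 normalized reads in the CCI rats and 26.5, 51.0 and 34.8 in the naive rats. The CCI values lay below the naive values by a small margin against naive rat 1, and the region was not called (log2 fold change -0.71, SE 0.31, and -0.46 without naive rat 2). Nearby, chr3:143215900-143216856 had 81.4 and 58.1 in the CCI rats and 90.8, 104 and 131 in the naive rats. The groups did not overlap there either, with a log2 fold change of -0.63 (SE 0.26), but it was not called, and the value was -0.39 without CCI rat 2.

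At the *Cst3* start, the region at 143223095 had 208 and 144 normalized reads in the CCI rats and 218, 203 and 201.1 in the naive rats. CCI rat 1 lay among the naive rats and CCI rat 2 below them, with a log2 fold change of -0.26 (SE 0.26), which was 0.01 without CCI rat 2 and -0.53 without CCI rat 1. This region is the nearest to the named one at lower coordinates, 31.4 kb away. On the other side the nearest was chr3:143268813-143269394, 14.1 kb away, with 40.1 and 23.4 normalized reads in the CCI rats and 41.2, 31.0 and 35.5 in the naive rats. The groups overlapped, and the log2 fold change was -0.21 (SE 0.30), which was 0.16 without CCI rat 2 and -0.59 without CCI rat 1.

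Per kb of region length, the region at 143208575 had 264 ± 26.7 (SD, n = 3) normalized reads in naive rats and the region at the *Cst3* start 244 ± 11.1, which did not differ beyond their spread. The region at 143220988 had 168 ± 55.9, and the named region 137 ± 25.6, also within the spread of each other. After CCI the region at the *Cst3* start stood at 207 ± 53.6 (SD, n = 2), the region at 143208575 at 150 ± 0.571, the region at 143220988 at 97.7 ± 6.98 and the named region at 67.0 ± 8.39. The region at the start was the higher one of the first 2 in each CCI rat and in naive rat 3.

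The regions of the *Cst3* window fell into groups of 10 and 10 around its largest gap, 47.7 kb, which ended at 143317129. All 10 before the gap, the named region among them, had a negative log2 fold change, with a median of -0.67, and 7 of them did without CCI rat 2. Of the 10 after the gap 7 were positive, with a median of 0.20, and none was called by limma at p below 0.01. The run in which naive rat 3 was low makes up 6 of these 10. After the gap the median was -0.41, with 3 positive, without naive rat 3 and -0.32, also with 3 positive, without CCI rat 2. It was 0.61 without naive rat 2, 0.45 without CCI rat 1 and 0.38 without naive rat 1. In the 9 regions before the gap other than the named one, the median log2 shift of a library from the mean of the 5 was -0.14 and -0.50 in the CCI rats and 0.26, 0.12 and 0.23 in the naive rats, with the CCI rats at the bottom. In the 10 after the gap it was -0.33 and 0.33 in the CCI rats and 0.33, 0.43 and -1.30 in the naive rats, with naive rat 3 far below the rest and the groups overlapping. The split was made after the values were seen.

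In the *Ctsb* window 10 of 18 accessible regions (55.6%) overlapped H3K4me1 by at least 1 bp, with 42.9% of the 112 regions in the flanks, the 1 Mb on each side, and 31.3% of all accessible regions. In the *Cst3* window the overlap was 6 of 20 (30.0%), with 20.3% of the 177 regions in its flanks. The study picked the named regions among accessible regions with H3K4me1 overlap, so their overlap was set in advance. Without them it was 9 of 17 (52.9%) in the *Ctsb* window and 5 of 19 (26.3%) in the *Cst3* window. H3K4me1 regions covered 16.2% of the *Ctsb* window and 10.6% of its flanks, and 6.0% of the *Cst3* window and 5.04% of its flanks. All 6 overlaps in the *Cst3* window lay before the gap, and all 10 in the *Ctsb* window after its gap. These shares are counts over neighbouring regions of the same merged list, with no replicate behind them.

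The longest H3K4me1 region of the windows, chr15:46357557-46368541, spanned 10985 bp and held 2 of the 3 strongest *Ctsb* window regions. Another of 4403 bp, chr15:46316308-46320710, covered the region at the *Ctsb* start in full, and one of 4380 bp, chr3:143219674-143224053, covered the regions at 143220988 and at the *Cst3* start. The named regions lay at the edge of shorter ones. Near *Ctsb* the H3K4me1 region, chr15:46281358-46282577, covered 79.1% of the named region, whereas near *Cst3* it was 366 bp long, chr3:143255175-143255540, and covered 28.6%. Of the 26 H3K4me1 regions that touch the *Ctsb* window 7 overlapped an accessible region, and of the 11 in the *Cst3* window 5 did.

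Log2 fold changes had a median of 0.45 in the 10 *Ctsb* window regions with H3K4me1 and of 0.64 in the 8 without it. The first was the larger one without naive rat 2 (0.40 and 0.30) and without CCI rat 2 (0.82 and 0.72), and without CCI rat 1 they were 0.06 and 0.47. In the *Cst3* window the medians were -0.67 in the 6 with H3K4me1 and 0.07 in the 14 without. The latter was -0.44 without naive rat 3, -0.32 without CCI rat 2 and -0.12 without CCI rat 1. It was 0.19 without naive rat 1 and 0.04 without naive rat 2. The sets with H3K4me1 include the named regions, which the study picked among accessible regions with H3K4me1 overlap. Without them, the CCI mean minus the naive mean of the median log2 shifts was taken, with SE from the spread between libraries. For *Ctsb* it was 0.38 (SE 0.25) in 9 regions with H3K4me1 and 0.52 (SE 0.26) in 8 without. For *Cst3* it was -0.48 (SE 0.15) in 5 with H3K4me1 and -0.27 (SE 0.40) in 14 without. The *Cst3* window region with the highest naive mean per kb was among those without H3K4me1, and the one with the highest CCI mean among those with it. In naive rats the median level was 46.6 normalized reads per kb with H3K4me1 and 35.4 without it in the *Ctsb* window, and 125 and 38.4 in the *Cst3* window.

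To set each window against its surroundings, the median log2 shift of its regions other than the named one was taken in each library, and the median shift of the flanks was subtracted. For the 17 *Ctsb* window regions the difference from the flanks was 0.20 and -0.07 in the CCI rats and -0.07, -0.12 and -0.02 in the naive rats. CCI rat 1 was the highest, and CCI rat 2 lay among the naive rats. The CCI mean exceeded the naive mean by 0.14 (SE 0.11), and by 0.01 without CCI rat 1. For windows and flanks the SE was taken from the spread between the libraries. Before the flanks were subtracted the excess was 0.38 (SE 0.18) in the window and 0.25 (SE 0.09) in the flanks, so the flanks shifted the same way as the window. The excess in the flanks was 0.14 without CCI rat 1 and 0.37 without CCI rat 2.

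For the 19 *Cst3* window regions the difference from the flanks was -0.10 and -0.19 in the CCI rats and 0.06, 0.64 and -0.34 in the naive rats. The CCI rats lay between naive rats 1 and 3, and naive rat 2 was far above the rest. The CCI mean was lower than the naive mean, with a difference of -0.27 (SE 0.37), smaller than its standard error. Before the flanks were subtracted it was -0.52 (SE 0.15) in the window, with either CCI rat below every naive rat, and -0.25 (SE 0.24) in the flanks. The flank value was -0.46 without naive rat 2, -0.13 without naive rat 1 and -0.09 without naive rat 3. For the difference from the flanks, the mean over regions in place of the median gave -0.04, and a pseudocount of 10 gave -0.11. Without naive rat 2 that difference was 0.05, and without naive rat 3 it was -0.59. Leaving out the 6 regions in which naive rat 3 was low, an alternative chosen after seeing the data, gave -0.29 (SE 0.23).

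The flanks of the *Cst3* window differed from each other. At lower coordinates the median shift of the 72 regions was 0.15 and 0.15 in the CCI rats and -0.07, -0.11 and -0.01 in the naive rats, with the CCI rats at the top. At higher coordinates the 105 regions shifted by -0.35 and -0.32 in the CCI rats and by 0.52, -0.40 and 0.67 in the naive rats. Naive rat 2 was the lowest of the 5 there, and naive rats 1 and 3 were well above the others. In 59 of these 105 regions (56.2%) naive rats 1 and 3 lay above both CCI rats and naive rat 2, as they did in 10.6% of all accessible regions and in 8.33% of the flank at lower coordinates.

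This pattern was strongest between 143850000 and 144100000, where 43 regions shifted by -0.36 and -0.59 in the CCI rats and by 0.70, -0.64 and 1.06 in the naive rats. The 28 regions in the preceding 250 kb showed the same split of the rats, and the last 250 kb, from 144100000, did not. In the 250 kb next to the window 8 regions shifted by -0.17 and -0.31 in the CCI rats and by 0.53, 0.45 and -0.54 in the naive rats, with naive rat 2 near naive rat 1 and naive rat 3 the lowest. All 12 called regions of this flank lay between 143600000 and 144100000 and were less accessible after CCI, where 1.46% of all regions were called in that direction. The 12 were 30 without naive rat 2, 6 without naive rat 1, 5 without naive rat 3, 3 without a trend, 16 after rescaling, 24 with edgeR and 8 with DESeq2. Over all regions the less accessible calls numbered 2735 in the main fit, and 2167, 1373 and 2097 without naive rats 2, 1 and 3. They numbered 1281 without a trend, 4619 after rescaling, 2585 with edgeR and 1829 with DESeq2. In the flank at lower coordinates limma called 0 of 72 regions at p below 0.01 and 5 at p below 0.05, a threshold that 11.1% of all regions met, edgeR and DESeq2 called 0, and limma called 1 without CCI rat 2 and 1 after rescaling. Steps of 250 kb were chosen after the values were seen, and the cause of the split among the naive rats was not tested.

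Set against the flank at lower coordinates alone, the *Cst3* window stood at -0.44 and -0.50 in the CCI rats and at 0.33, 0.47 and -0.02 in the naive rats. Naive rat 3, the lowest naive rat, was still above either CCI rat, and the difference was -0.73 (SE 0.19). Set against the flank at higher coordinates alone, it stood at 0.06 and -0.04 in the CCI rats and at -0.25, 0.75 and -0.70 in the naive rats, and the difference was 0.08 (SE 0.56) with the groups overlapping. The 2 sides of the *Ctsb* window gave 0.19 (SE 0.14) and -0.05 (SE 0.12), both with overlapping groups. These values by side were also chosen after seeing the data.

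Once the flank shift was subtracted, the named region near *Ctsb* had a log2 fold change of 0.94 and the called region at 46292055 of 0.84. The region at the *Ctsb* start stood at -0.08. For *Cst3* the subtracted shift, -0.25, was taken over both flanks. These shifted by 0.21 at lower and -0.59 at higher coordinates, so the corrected values depend on the flank used. In the *Cst3* window the named region had -0.76, the region listed for *Cstdc2* -1.17, the region at 143199853 -1.05 and the region at 143208575 -0.55, and the region at the *Cst3* start -0.01. Without naive rat 2, these were -0.51, -1.22, -0.92, -0.32 and 0.18 in the same order. The region at the *Cst3* start stood at -0.27 without CCI rat 1, 0.28 without CCI rat 2 and -0.19 without naive rat 3. The region at 143220988 stood at -0.45, and at -0.01 without naive rat 2.

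At the window limits the regions on the inner side had few reads. The first *Ctsb* window region, at 46183958, had a log2 fold change of 0.68 (SE 0.90) and the last region before the window, at 46157134, -0.94 (SE 0.61). At the other limit the values were -0.78 (SE 0.84) inside, at 46375971, and 0.17 (SE 0.25) outside, at 46381653. For the *Cst3* window they were -0.02 (SE 0.64) inside, at 143151062, and 0.96 (SE 0.57) outside, at 143129067, and at the higher limit -0.20 (SE 0.55) inside, at 143348426, and 0.55 (SE 0.87) outside, at 143375453. None of these exceeded 2 of its standard errors.

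Of 31 related genes of the cathepsin, cystatin and lysosome lists, 6 could be located by the gene names beside regions in the study's lists of changed regions, with 11 regions. limma called 5 of these more accessible and 5 less accessible after CCI, where it called 2.13% and 1.46% of all regions. Since the lists were chosen on this contrast, this is not independent evidence of a direction. The regions of *Ctsk*, which encodes cathepsin K, *Tfeb*, a transcription factor of lysosome genes, and *Grn*, which encodes progranulin, were the more accessible ones. Of the 4 *Grn* regions 1 was not called, with a log2 fold change of 0.60 (SE 0.26). The regions of *Ctsc* and *Ctsh*, which encode cathepsins C and H, and of *Cst7*, which encodes cystatin F, were the less accessible ones.

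The *Ctsc* region with the larger change, chr1:151571393-151572565, had 60.1 and 32.5 normalized reads in the CCI rats and 131, 123 and 108 in the naive rats, without overlap of the groups (log2 fold change -1.42, SE 0.26). The *Cst7* region with the larger change, chr3:145751497-145752172, had 50.7 and 42.1 in the CCI rats and 104, 69.0 and 85.4 in the naive rats, also without overlap (log2 fold change -0.86, SE 0.26). The other *Ctsc* region had a log2 fold change of -0.70 (SE 0.25) and the other *Cst7* region -0.72 (SE 0.26). The *Ctsk* region at chr2:196654654-196655547 had 50.7 and 42.1 in the CCI rats and 18.0, 22.0 and 29.6 in the naive rats, the opposite order (log2 fold change 0.99, SE 0.31). Of 31 markers of DRG cell types and muscle 9 were found in the same lists, with 10 regions, and limma called 7 of these higher and 2 lower after CCI, against the same 2.13% and 1.46% over all regions. The log2 fold changes were 1.63 for *Scn11a*, 1.24 for *Prph*, 1.24 for *Ret* and 1.10 for *Nefh*, markers of sensory neurons, 1.10 for *Sox10* and -0.76 for *Mbp*, markers of Schwann cells, -0.86 for *Cdh5* and 0.60 for *Pecam1*, markers of endothelial cells, and 0.74 and 0.95 for *Col1a1*, a marker of fibroblasts. Of these marker regions only that of *Pecam1* was not called. These lists too were chosen on this contrast, and the part of cell shares in the values of both loci was not tested. The tissue could not be checked against markers in these data beyond that, since the other markers were not located without an rn6 annotation.

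The study amplified the named region near *Cst3* with the pair of primers below, shown because they define the cloned fragment. Capitals mark the part that the study wrote in capitals, 19 and 20 bases long, and their match to the genome was not checked. The lower-case tails carry the recognition sites of MluI and BglII.

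Forward primer: atcaacgcgtCTGGGAGAAGGGAACAGCC

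Reverse primer: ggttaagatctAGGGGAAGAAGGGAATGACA

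The promoter of *Cst3* is shown because the region at the gene start, unlike the named one, had overlapping groups. Of *Ctsb* and *Cst3*, 1 had an entry in the RefSeq promoter table, *Cst3* at chr3:156793888-156794187 of GRCr8, on the minus strand, with 300 bases. Its GC content was 58.0%, with a median of 51.7% over all promoters of this length. Capitals mark 1 GC box (GGGCGG, in 33.1% of the 33469 promoters) and 1 CCAAT box (CCAAT, here as its reverse complement, in 37.5%), searched on both strands.

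*Cst3* promoter: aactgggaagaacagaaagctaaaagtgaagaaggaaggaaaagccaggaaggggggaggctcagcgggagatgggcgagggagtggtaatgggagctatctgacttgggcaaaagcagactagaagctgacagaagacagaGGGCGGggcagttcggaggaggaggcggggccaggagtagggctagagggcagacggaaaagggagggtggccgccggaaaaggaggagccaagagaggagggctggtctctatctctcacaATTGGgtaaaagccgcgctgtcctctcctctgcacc

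The letters of the E-box CACGTG (in 6.42% of promoters), the AP-1 site TGANTCA (7.33%) and the TATA box TATAAA (14.2%) were not in these 300 bases. A match or its absence describes the letters only.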

How the data were processed

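For ATAC-seq, the authors aligned reads to rn6 with Bowtie2, removed duplicates, ran MACS2 on every library and took read numbers for the merged set from DiffBind. The deposited signal is these reads after division by a size factor relative to naive rat 2. For H3K4me1, the authors deposited positions of merged broad MACS2 regions. The submitters' processing notes name CASAVA 1.8.2.

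Whole reads were recovered from the signal for 99.99% to 100% of values per library, within the rounding of the deposited values. limma 3.58.1 in R 4.3.3, with a mean-variance trend and no covariates, was fitted to log2(value + 1) of 2 CCI and 3 naive libraries. edgeR 4.0.16 and DESeq2 1.42.0 on the recovered reads were alternatives. Overlaps were found with bedtools 2.31.1, and summaries were made with Python 3.11.15, numpy 2.4.6 and pandas 2.3.3. The limma, edgeR and DESeq2 fits were tested on simulated reads.

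Regions named with values are the 2 named by the study, all others called, the 3 strongest and the 3 most alike per window, the nearest on each side of a named region, and 1 singled out after its values were seen. The regions on either side of each window limit, and listed regions of related genes and markers, are given as well. Members and lists were chosen with earlier results of these data known. Values rest on read counts, and their precision is limited by counting error.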

Additional observations from a re-analysis of the deposited data

How the results depend on the processing

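Under the pseudocounts, filter, rescaling, replicate block, flank correction and left-out rats tried one at a time, the fold changes of the regions named by the study ranged from 0.93 to 1.42 near *Ctsb* and from -1.17 to -0.76 near *Cst3*. Their direction is not tested by this, since they were selected on this contrast and their groups do not overlap. With the flank correction and naive rat 2 left out they were 0.68 and -0.51, and with it and CCI rat 1 left out -0.63 near *Cst3*. Over all regions 6703 were called, and 20819 at p below 0.05, 643 at an adjusted p below 0.05, 3066 among H3K4me1 overlaps only, 3142 without a trend, 4193 with DESeq2, and 3352 (without CCI rat 1) to 7668 (without CCI rat 2) with 1 rat left out, and 3793 without naive rat 1. Regions called in the *Ctsb* window numbered 2, and 1 at the adjusted p, 0 without a trend (3 at p below 0.05 with a trend, 3 with edgeR and 2 with DESeq2) and 2 to 3 with 1 rat left out. Those in the *Cst3* window numbered 4, and 7 at p below 0.05, 2 at the adjusted p, 2 among H3K4me1 overlaps only, 1 without a trend, 6 after rescaling, 3 with DESeq2 and 2 (without naive rat 1) to 5 (without naive rat 2, 1 of them more accessible) with 1 rat left out. All counts by window here were made with the named region of that window included. With the replicate number as a block, 3944 of all regions, 1 in the *Ctsb* window and 2 in the *Cst3* window were called. The numbers were not taken to pair rats, and the deviations of rats with the same number correlated at -0.06 and -0.06. With 2 CCI rats the deviations of one mirror those of the other, so these correlations cannot decide whether rats were paired.

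Relative to the flanks, the *Ctsb* window ranged from 0.014 to 0.26 and the *Cst3* window from -0.59 to 0.055 with 1 rat left out. The *Ctsb* value was 0.063 with flanks of 500 kb and 0.089 with a pseudocount of 10. The flank at higher coordinates alone gave -0.046 for *Ctsb* and 0.077 for *Cst3*, and the flank at lower coordinates alone -0.73 for *Cst3*. These sides were chosen after seeing the data. H3K4me1 overlaps in the *Cst3* window numbered 3 with H3K4me1 regions of at least 1 kb. For 14 other regions named with values, 140 values moved by less than 1 SD between rats, 14 moved by more and 0 changed sign among those called. Among those not called, the sign changed with the flank correction at 46316580 (-0.083), 46366946 (-0.016) and 143268813 (0.038), and without CCI rat 2 at 143223095 (0.0067) and 143268813 (0.16). The cause of these differences was not tested. In groups of 2 and 3 rats, and with a median of 9 reads per region in naive rat 2, small differences at single regions are not detectable.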
